A study of Rattus norvegicus with 2 samples.

Results

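The genes described here are those of glycolysis and the pentose phosphate pathway in rat whole blood, with the enzymes that set the rate of glycolysis and the transporters that carry glucose and lactate. The list held 36 genes, chosen by pathway. Through the RefSeq accession of each probe, 31 of the 36 genes were matched to the array, on 37 probes, out of 8898 genes that could be named in this way. Adpgk, Pfkp, Pgls, Pgd and Rpia were not matched, and their signals are not analysed here. The counts of called members below therefore do not cover them, among them Adpgk, for which an earlier result of these data was known.

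Male rats (7 weeks old) were dosed into the stomach once a day for 13 days. The LO group received lavender oil (LO, from Lavandula angustifolia) at 5 mg/kg in 10% ethanol, and the control group received 10% ethanol alone, so both groups were given ethanol. Blood was taken on day 14. The protocol text names F334 rats and the sample labels name Wistar, and the sources also differ on whether portal vein blood was collected beside heart blood. Total RNA of 6 rats was pooled in each group, and the 2 pools were hybridised together on 2 Agilent 60-mer arrays with the dyes exchanged. On array 1 the LO pool carried Cy5 and the control pool Cy3, and on array 2 the LO pool carried Cy3 and the control pool Cy5. The arrays are therefore a technical repeat of 1 pair of pools, and no test between LO and control rats was possible. In pooled blood, fewer cells of a type and less RNA per cell cannot be told apart.

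Glycolysis splits glucose into pyruvate and yields ATP without oxygen. Mature red cells of mammals have no mitochondria and live on this pathway, while the pentose phosphate branch supplies the NADPH that keeps their glutathione reduced. Neutrophils and activated lymphocytes also draw heavily on glycolysis. Most steps are carried out by several isoforms that differ between tissues, so the first question of a blood array is which isoform can be seen at all.

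Each probe has 4 signals, 1 for each pool on each array, in arbitrary units after dye normalisation by the scanner software. A probe is called measured here when the software rated it well above background in all 4 channels. The LO part of a probe is its LO/control ratio on the log2 scale averaged over both arrays, in which a constant dye effect cancels. The dye part is the Cy5/Cy3 ratio on the same scale, averaged likewise, and it is positive when Cy5 is brighter. Signals of different probes depend on the probe sequence and are not compared with each other.

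A larger share of the glycolysis genes than of all named genes was seen, and their LO and control signals lay close together. Of the 31 genes, 22 were measured in all 4 channels, which is 71.0% against 51.1% of all 8898 named genes. Counted by probe, 27 of 37 member probes were measured (73.0%), against 37.5% of all 41009 probes and 49.3% of the 10767 probes with a gene name. Another 7 member probes were above background in 1 to 3 channels. Only 3 genes, Hk2, Eno2 and Ldhc, were above background in no channel, where 2632 of all 8898 named genes were. By probe this was 8.11% of the member probes, against 41.1% of all probes and 31.0% of the probes with a gene name. At nearly every enzymatic step from hexose phosphorylation to lactate at least 1 matched gene was measured, the exception being triose phosphate isomerase, whose Tpi1 probe missed 1 channel.

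**Figure D1:**
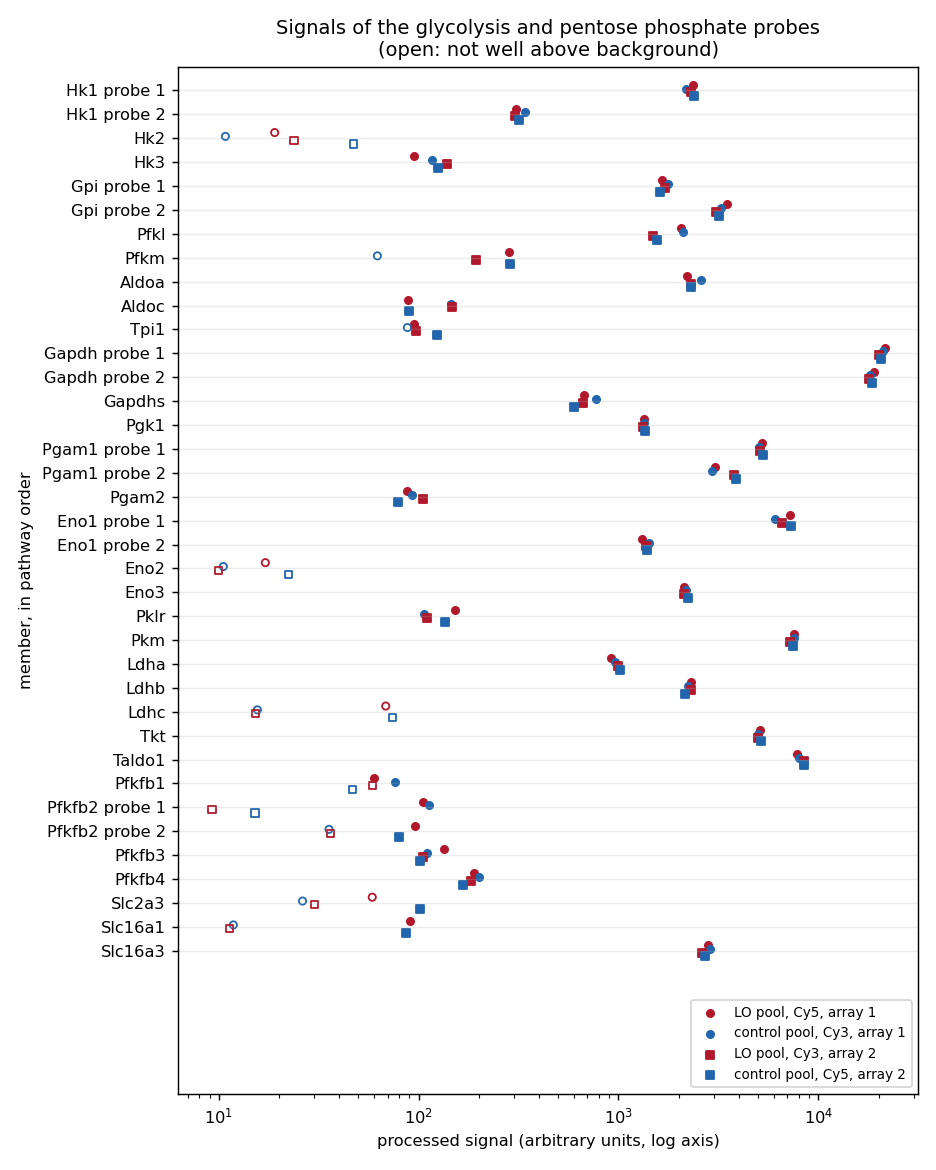
Processed signal (log axis, arbitrary units) of the 37 member probes in pathway order, with red for the LO pool, blue for the control pool, circles for array 1 and squares for array 2. Open symbols were not well above background. In the measured probes over 1000 the symbols of both pools on an array lie close together. Those of Pfkl and of a Pgam1 probe are shifted between the arrays. On each array the Cy5 symbol (red circle, blue square) of the dim Hk2, Eno2, Ldhc, Slc2a3 and Slc16a1 probes lies right of Cy3. For Pfkfb1 it lies left. Of the 10 member probes not measured in all 4 channels, 7 had a dye part over 1.5-fold towards Cy5 and 0 towards Cy3. Among all 25621 such probes, 5388 passed 1.5-fold towards Cy5 and 6361 towards Cy3. Levels of different probes are not comparable.

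No measured member had an LO part over 1.5-fold in either direction, where 0.123% of the 15388 measured probes of the array did. The LO parts of the 27 member probes ran from -0.11 to 0.17 on the log2 scale, with a median of -0.01 beside 0.00 for all measured probes. Above 0 were 13 and below 0 were 14. Their median size was 0.036, against 0.061 over all measured probes. An LO part within 0.1 of 0 was found in 22 of the 27 (81.5%), against 68.7% of all measured probes. The study's methods set a threshold of 0.01 on the scanner software's p. Required here on both arrays with the same LO/control direction, it selected 0 of the 37 member probes and 0.0219% of all probes. That p compares spot signals and not groups of rats, so only the calls are counted. A selection by fold alone, chosen after seeing the data, asked for Cy5/Cy3 of 1.5 or more with one dye order and 0.75 or less with the reverse order. The paper gives the same fold limits for its differentially expressed genes. This selection called 0 of the 64 member features and 834 of all 43379 features (1.92%), 362 up and 472 down. Those counts of features equal the paper's totals of up-regulated and down-regulated genes.

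The LO part was smaller in brighter probes, in the members as in the whole array. Among probes with a mean signal over 1000, which hold 18 member probes of 14 genes, the median size of the LO part was 0.029 in the members and 0.031 in all probes. Between 200 and 1000 it was 0.051 in 3 member probes and 0.060 in all. Under 200 it was 0.091 in 6 member probes and 0.106 in all. At matched signal the members' medians thus lay beside those of all probes, while 18 of the 27 member probes but 3564 of all 15388 were over 1000.

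With the arrays taken as labelled, the part of the ratio that went with the dye was larger than the part that went with the LO pool for most members, as over the whole array. Were the labels of 1 array crossed, the LO and dye parts would change places, which was not tested. In 17 of the 27 member probes the LO/control ratio changed sign between the arrays, against 75.6% of all measured probes, and over all measured probes the LO/control ratios of both arrays had a Pearson r of -0.705, a description across probes of 1 pair of pools. LO was higher on both arrays for Ldhb and Pfkfb3, although the LO part of Pfkfb3 was negative under the background correction by normexp with loess. It was lower on both for 8 probes, those of Pfkl, Eno3, Pkm, Ldha, Taldo1 and Slc16a3 and 1 of the probes of Hk1 and of Eno1. Of all 15388 measured probes, LO was higher on both arrays for 1796 and lower on both for 1952. With normexp and loess 6 of the 27 LO parts changed sign, those of Hk3, Gapdhs, Taldo1, Pfkfb3 and 1 probe each of Gpi and Pgam1. The median size of the dye part was 0.051 in the members and 0.150 in all measured probes. Over a mean signal of 1000 it was 0.042 in the members and 0.078 in all probes. Between 200 and 1000 it was 0.045 in 3 member probes and 0.138 in all. Under 200 it was 0.242 in 6 member probes and 0.289 in all. Aldoc was the only measured member with a dye part over 1.5-fold, a call that 6.5% of all measured probes received. With normexp and loess the dye part of Aldoc was -0.20 in place of -0.72, and no measured member was past 1.5-fold.

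**Figure D2:**
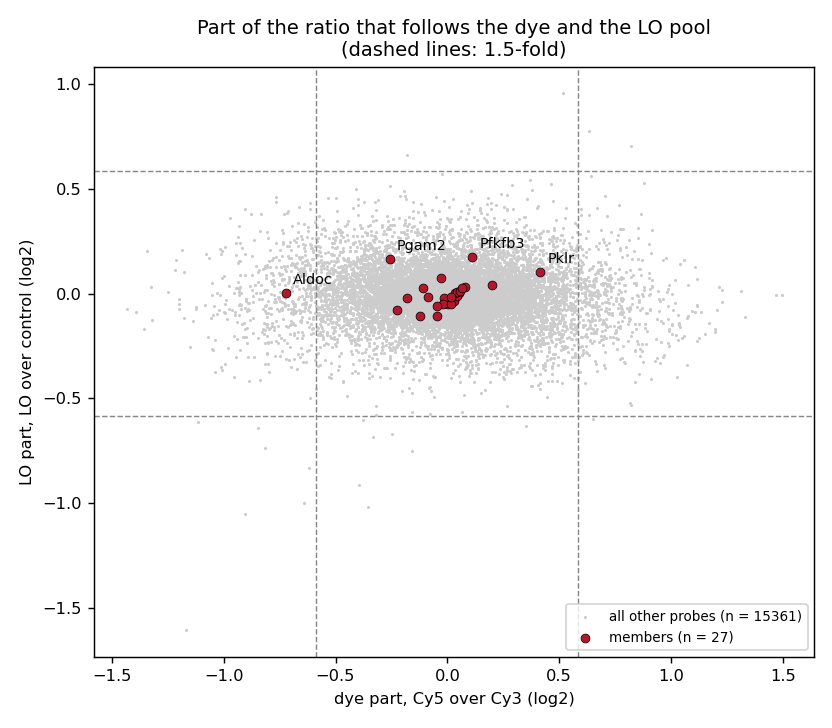
LO part (vertical, log2) against dye part (horizontal, log2) for the 27 measured member probes in red and all other measured probes in grey, with dashed lines at 1.5-fold. The members lie between -0.11 and 0.17 on the vertical axis, and Aldoc stands past the 1.5-fold line of the dye part at -0.72.

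Hexokinase traps glucose in the cell as glucose-6-phosphate. Hk1, the isoform of red cells and brain, was measured by both of its probes. The brighter probe gave 2362 in the LO pool and 2187 in the control pool on array 1, and 2308 and 2389 on array 2. This probe had an LO part of 0.03. The other Hk1 probe gave 307 and 341 on array 1 and 303 and 317 on array 2, with an LO part of -0.11. In the first probe LO was the higher on array 1 and the lower on array 2, and in the other it was the lower on both. Hk3, an isoform of myeloid cells, gave 94.9 in LO and 117 in control on array 1, and 139 and 125 on array 2. The Cy3 channel was the brighter on both arrays, with a dye part of -0.22 beside an LO part of -0.08 that was 0.03 with normexp and loess. Hk2, the insulin-regulated isoform of muscle and fat, had signals of 10.8 to 47.3, none of them well above background.

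Gpi, which turns glucose-6-phosphate into fructose-6-phosphate, was measured by 2 probes with LO parts of -0.02 and 0.03. Phosphofructokinase, the committed step of glycolysis, was represented by Pfkl and Pfkm, the liver and muscle type subunits that red cells combine. Pfkl gave 2046 in LO and 2115 in control on array 1, and 1494 and 1552 on array 2. Both signals were lower on array 2, in both pools alike, and the LO part was -0.05 with a dye part of 0.00.

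Pfkm was the exception of the list, because 1 of its 4 signals stood apart. It gave 282 in LO and 62.2 in control on array 1, and 195 in LO and 288 in control on array 2. The control signal of 62.2 was the only one of the 4 not well above background, and the other 3 lay between 195 and 288. Array 1 gave an LO/control log2 ratio of 2.18 and array 2 one of -0.57. The pools changed places between the arrays, and the Cy5 channel was brighter on both. The array 1 ratio was taken against a control signal not well above background, and Pfkm does not count as measured. Without any filter on dim probes it was the only member past 1.5-fold, a level that 8.14% of all probes then passed.

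Aldolase splits fructose-1,6-bisphosphate. Aldoa, the isoform of muscle and red cells, gave 2215 in LO and 2598 in control on array 1, and 2317 and 2296 on array 2. Only the control signal of array 1 lay above the rest, and the LO part was -0.11. Aldoc, known best from brain, gave 88.6 in LO and 146 in control on array 1, and 148 in LO and 89.4 in control on array 2. These are mirror images. Whichever pool carried Cy3 read about 146 to 148 and whichever carried Cy5 about 88.6 to 89.4. Array 1 gave an LO/control log2 ratio of -0.72 and array 2 one of 0.72, so the LO part was 0.00 and the difference went with the dyes as labelled. Either array alone would have placed Aldoc past 1.5-fold, in opposite directions.

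**Figure D3:**
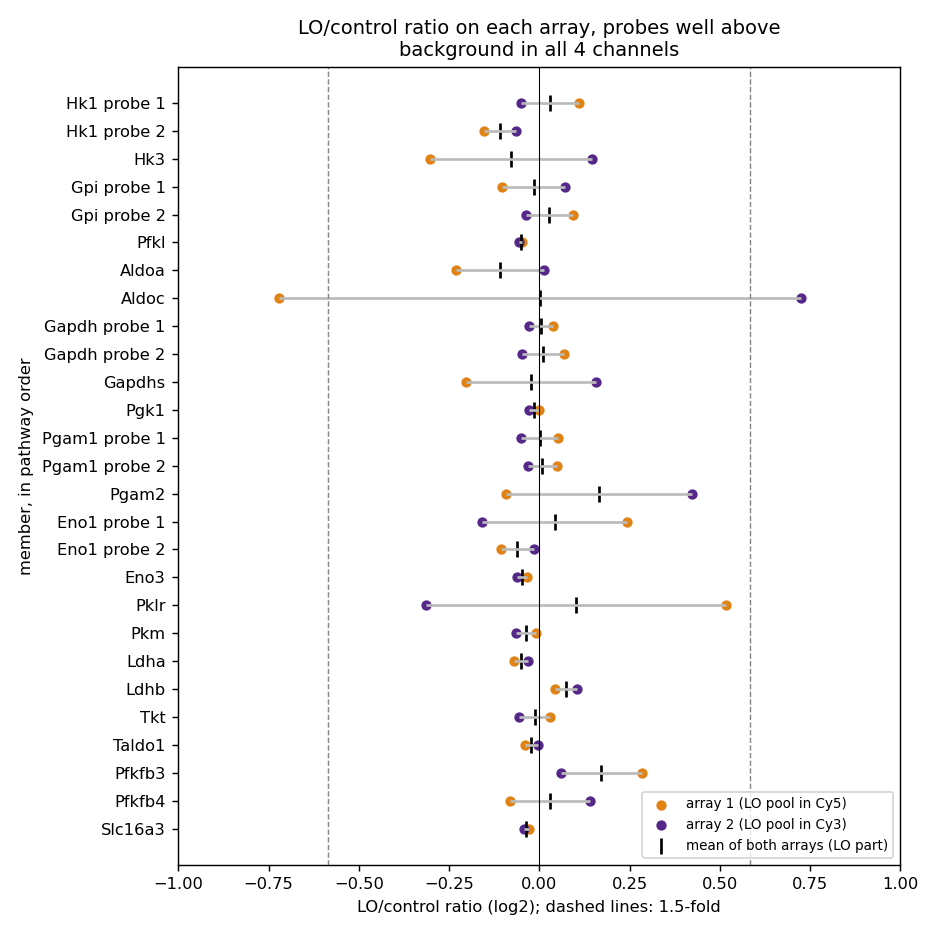
LO/control log2 ratio of the 27 measured member probes on array 1 (orange) and array 2 (purple), with a bar at their mean, the LO part, and dashed lines at 1.5-fold. The points of Aldoc lie at -0.72 and 0.72 around a mean of 0.00, and the points of the bright probes, such as those of Pkm and Tkt, lie close to 0.

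Tpi1, which interconverts the triose phosphates, gave 94.7 in LO and 87.9 in control on array 1, and 97.4 and 124 on array 2, with the control signal of array 1 not well above background. Tpi1 therefore does not count as measured, and no fold is given.

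Gapdh and Pgk1, enzymes of the pay-off phase, were each printed on 10 spots of an array by 1 probe, so the repeatability within an array can be given for these probes. Gapdh, glyceraldehyde-3-phosphate dehydrogenase and a common reference gene, had median spot signals of 21571 in LO and 21155 in control on array 1, and 20153 and 20660 on array 2. Its LO part was 0.00 ± 0.03 (SD over 10 spots of 1 pair of pools), with 3 of the 10 spots below 0. A separate Gapdh probe gave 18945 in LO and 18069 in control on array 1, and 17960 and 18553 on array 2, with an LO part of 0.01. Pgk1, the first ATP-forming enzyme of the pathway, had median spot signals of 1351 and 1338 on array 1 and 1346 and 1371 on array 2. The LO part of Pgk1 was -0.01 ± 0.02 (SD over 10 spots), and in 8 of the 10 spots it was below 0. The spread between spots is that of the array surface and holds no variation between rats. For the 3 member probes printed 10 times the pooled SD of the LO part between spots was 0.03. Over 122 measured probes of the array with repeated spots it was 0.13. All other member probes have 1 spot, and no such spread can be given for them.

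Gapdhs, the isoform named for sperm, was measured as well. It gave 672 in LO and 773 in control on array 1, and 667 and 599 on array 2. Cy3 was brighter on both arrays, with a dye part of -0.18 and an LO part of -0.02. Of 4 genes listed as testis markers, 1 (Prm1) was measured in all 4 channels and 2 were above background in no channel.

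Phosphoglycerate mutase moves the phosphate group of 3-phosphoglycerate. Pgam1, the broadly expressed isoform, gave 5250 in LO and 5062 in control on array 1 and 5108 and 5285 on array 2 by 1 probe. The other Pgam1 probe gave 3029 and 2926 on array 1 and 3767 and 3853 on array 2. The first had an LO part of 0.00 and the other 0.01, although the second read higher on array 2 in both pools. Pgam2, the muscle isoform, gave 87.4 in LO and 93.2 in control on array 1, and 106 and 78.8 on array 2. Its LO part of 0.16 rested on array 2, where the ratio was 0.42, while array 1 gave -0.09. With normexp and loess the LO part of Pgam2 was 0.01.

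Enolase makes phosphoenolpyruvate. Eno1, the broadly expressed isoform, gave 7204 in LO and 6087 in control on array 1, and 6566 and 7327 on array 2 by its brighter probe. Cy5 was brighter on both arrays, with a dye part of 0.20, and the LO part was 0.04. The other Eno1 probe gave 1315 and 1417 on array 1 and 1378 and 1391 on array 2, with an LO part of -0.06. Eno3, the muscle isoform, gave 2135 in LO and 2186 in control on array 1, and 2123 and 2217 on array 2. Its LO part was -0.05 and its dye part 0.01. Eno2, the neuronal isoform, had signals of 9.99 to 22.3, none of them well above background.

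Isoforms named here for muscle, some of them shared with other tissues, were thus split. Pgam2, Eno3, Aldoa and Ldha were measured in all 4 channels, Pfkm was above background in 3 and Hk2 in none. Of 3 skeletal muscle markers on the array (Acta1, Ckm and Tnnt3), none was measured in all 4 channels and each was above background in at least 1. Of 3 heart muscle markers none was measured in all 4 channels and 2 were above background in no channel. Of 4 hepatocyte markers, 2 (Alb and Serpina1) were measured in all 4 channels, on 2 of the 6 probes of that list. Blood markers that could be matched were all measured in all 4 channels by at least 1 probe, although another Cd14 probe was above background in only 1 channel. They were 3 of the 7 red cell genes listed, 4 of 6 platelet genes, 6 of 7 neutrophil and monocyte genes, 4 of 5 T cell genes and 1 of 4 B cell genes.

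Pyruvate kinase closes glycolysis with the second yield of ATP. Pkm, the isoform of white cells and most tissues, gave 7531 in LO and 7576 in control on array 1, and 7173 and 7500 on array 2. The signals of the pools lay side by side, and the LO part was -0.04. Pklr, the gene of the red cell and liver enzyme, gave 152 in LO and 106 in control on array 1, and 110 and 136 on array 2. Cy5 was the brighter on both arrays, with a dye part of 0.42, the largest by size after that of Aldoc among measured members. The LO part was 0.10, or 0.04 with normexp and loess.

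Lactate dehydrogenase returns NAD to glycolysis by turning pyruvate into lactate. Ldha encodes the muscle type subunit, Ldhb the heart type subunit, and Ldhc a subunit of the testis. The genes were split in detection by 1 probe each, with Ldha and Ldhb measured in all 4 channels and Ldhc above background in none. A miss by 1 probe does not show that the RNA was absent. To set the genes of this split side by side, the 250 bases upstream of each start are shown, 5′ to 3′ on the strand of the gene, from RefSeq on build GRCr8. Capitals mark ACGTG or GCGTG on either strand (read as CACGT or CACGC on the other), the core of the element bound by hypoxia-inducible factors, and overlapping matches run together. The windows are chr1:106507842-106508091 on the plus strand for Ldha, chr4:177177409-177177658 on the minus strand for Ldhb and chr1:106522745-106522994 on the plus strand for Ldhc.
Ldha: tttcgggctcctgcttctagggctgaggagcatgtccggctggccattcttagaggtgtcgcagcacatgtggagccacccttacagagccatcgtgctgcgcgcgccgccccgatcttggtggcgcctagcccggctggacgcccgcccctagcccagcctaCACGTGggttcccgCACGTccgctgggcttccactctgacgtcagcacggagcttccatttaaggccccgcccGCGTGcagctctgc
Ldhb: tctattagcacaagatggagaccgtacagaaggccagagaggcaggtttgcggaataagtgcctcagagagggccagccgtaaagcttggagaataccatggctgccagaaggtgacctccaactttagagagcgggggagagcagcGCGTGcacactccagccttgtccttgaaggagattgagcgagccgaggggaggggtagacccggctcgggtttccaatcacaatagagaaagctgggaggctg
Ldhc: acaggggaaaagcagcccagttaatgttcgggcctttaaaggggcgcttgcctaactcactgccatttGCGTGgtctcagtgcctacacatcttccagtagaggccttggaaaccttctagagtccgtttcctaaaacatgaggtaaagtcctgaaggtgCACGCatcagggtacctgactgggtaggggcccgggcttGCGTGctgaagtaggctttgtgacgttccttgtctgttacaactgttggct

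The starts of Ldha and Ldhc lie 14.9 kb apart on chromosome 1, on the same strand. The Ldha window holds 4 matches and 22 CG dinucleotides, the Ldhb window 1 match and 10 CG, and the Ldhc window 3 matches and 8 CG. Windows were found for 33 of the 36 listed genes, 37 windows in all, and 51.4% of them hold a match against 36.7% of all 33469 windows in the table. The median number of CG dinucleotides was 13 in the members and 5 in all windows. Members measured in all 4 channels held a match in 13 of their 25 windows (52%) and the other members on the array in 4 of only 8 (50%). A match is a run of letters in these windows and not a site of binding.

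Ldha was printed on 10 spots, with median signals of 927 in LO and 969 in control on array 1, and 989 and 998 on array 2. Its LO part was -0.05 ± 0.05 (SD over 10 spots), below 0 in 9 of the 10 spots. Ldhb gave 2298 in LO and 2229 in control on array 1, and 2318 and 2156 on array 2, with LO above control on both arrays and an LO part of 0.07. The LO parts of Ldha and Ldhb thus had opposite signs, and both were within 0.1 of 0. Ldhc gave 68.5 in LO and 15.6 in control on array 1, and 15.3 in LO and 74.3 in control on array 2. Its brighter signals were both in Cy5 and none was well above background, so no fold between pools is given.

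**Figure D4:**
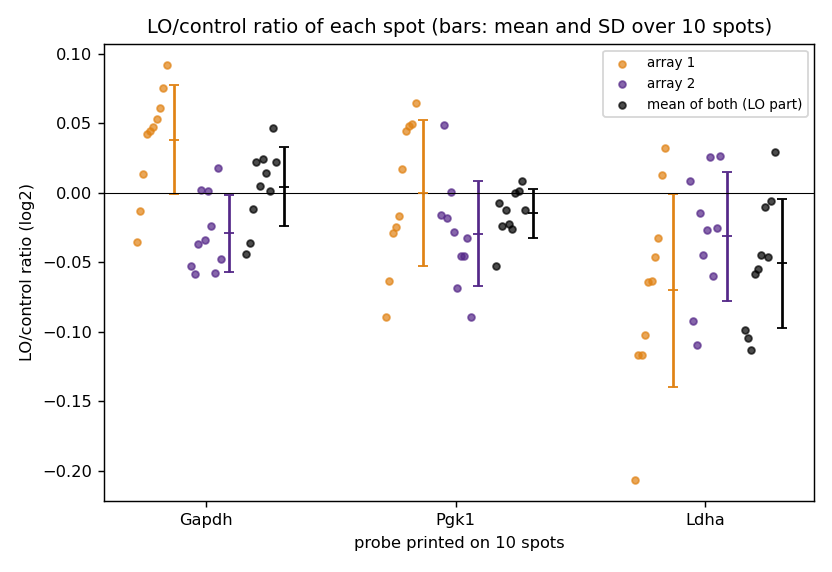
LO/control log2 ratio of each of the 10 spots of the Gapdh, Pgk1 and Ldha probes on array 1, on array 2 and as the mean of both arrays, with bars for the mean and SD over spots. The spot means of the LO part are 0.00 for Gapdh, -0.01 for Pgk1 and -0.05 for Ldha, and 9 of the 10 Ldha spots lie below 0.

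Tkt and Taldo1, transketolase and transaldolase, link the pentose phosphates back to glycolysis. Tkt gave 5094 in LO and 4989 in control on array 1, and 4999 and 5193 on array 2. Taldo1 gave 7814 and 8026 on array 1 and 8453 and 8481 on array 2. In both genes the pools were nearly level, with LO parts of -0.01 and -0.02.

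The Pfkfb genes encode bifunctional enzymes that make and break fructose-2,6-bisphosphate, the activator of phosphofructokinase. Pfkfb3, the inducible isoform of leukocytes and growing cells, had the largest LO part of the measured members in the scanner software's ratios. It gave 134 in LO and 110 in control on array 1, and 106 and 101 on array 2. LO was higher on both arrays, by 0.28 on array 1 and 0.06 on array 2, for an LO part of 0.17. With normexp and loess that LO part was -0.09, so its direction depends on the background correction. The sizes on the arrays differ by more than the LO part itself, and 13.8% of all measured probes had a larger LO part by size. Pfkfb4 gave 189 in LO and 200.3 in control on array 1, and 183 and 166 on array 2, with an LO part of 0.03.

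The liver and heart isoforms of the same family were at the edge of detection. Pfkfb1 was above background in both pools on array 1 (59.8 and 76.2) and in neither on array 2 (58.7 and 46.7). A first Pfkfb2 probe gave 105 in LO and 113 in control on array 1 but 9.26 and 15.2 on array 2, where neither was well above background and the software set the ratio to 0. The other Pfkfb2 probe was above background only in Cy5, at 96.0 in LO on array 1 and 80.2 in control on array 2, with 35.6 and 36.4 in the Cy3 channels.

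Among the transporters, Slc16a3 (MCT4), which exports lactate from glycolytic cells, gave 2796 in LO and 2855 in control on array 1, and 2626 and 2705 on array 2. The pools were again nearly level, with an LO part of -0.04. Slc16a1 (MCT1), the lactate carrier of red cells and many tissues, gave 91.1 in LO and 11.8 in control on array 1, and 11.3 in LO and 86.7 in control on array 2. The pools traded places with the dyes, and both Cy3 signals were not well above background, so no fold is given. It was the only member whose software p was under 0.01 on both arrays towards the same dye, as for 2.64% of all probes. Slc2a3 (GLUT3), a high-affinity glucose carrier of white cells and platelets, gave 58.7 in LO and 26.3 in control on array 1, and 30.2 and 102 on array 2. Only the last of these was well above background, and the limit on the fold between pools came out below 1, so no fold is given.

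Of the measured genes, 5 had more than 1 measured probe, and the probes of a gene gave LO parts that lay apart by 0.01 (Gapdh and Pgam1), 0.04 (Gpi), 0.10 (Eno1) and 0.14 (Hk1). The last gap is nearly as large as the LO part of Pfkfb3 in the same ratios.

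Related genes of glucose metabolism, listed beside the members, were likewise seen with small LO parts. Of 29 such genes 22 were matched and 17 measured, on 19 probes, with LO parts from -0.19 to 0.25 and none past 1.5-fold. Bpgm, which makes the 2,3-bisphosphoglycerate that lowers the oxygen affinity of haemoglobin, had an LO part of -0.06. Pdhb, a subunit of pyruvate dehydrogenase, was the only one with a dye part over 1.5-fold, at 0.86. The 3 red cell genes had LO parts of -0.09 to 0.00, beside a dye part of 1.11 for Alas2.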

How the data were processed

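Signals of 2 dye-swapped arrays of the same 2 RNA pools were analysed. The authors extracted them with Agilent Feature Extraction 11.0.1.1, which subtracts background and corrects the dyes by LOWESS. The deposited scanner output holds median and processed intensity values by channel, a log10 ratio (Cy5 over Cy3) for each feature, its p-value from an error model of the spot, and flags for outliers, saturation and signal over background. In 6390 features on array 1 and 5724 on array 2 the deposited log10 ratio was set to 0. The authors' value table gives no scale, but its values equal log10 of the processed Cy5 signal divided by the Cy3 signal, and it served as an alternative. The array was designed on an older genome build, so no probe coordinates are given.

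Control spots and 338 features flagged as non-uniform or population outliers on either array were left out (0 of them among the 64 member features), and 0 features were saturated. Spots of a probe were averaged on the log scale, giving 41009 probes. From the deposited log10 ratios and the dyes named in the labels, log2 ratios of LO over control were computed. A channel counted as well above background when at least 50% of a probe's spots carried that flag. Median signals per channel were 53.6 to 62.8, and 44.8% to 50.3% of features were well above background. With 1 pool a group the number of pools limits the precision, and no p is printed. Symbols came from the unversioned RefSeq accession matched to a GRCr8 gene table.

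Every member is named. All 4 signals are given for measured members past a threshold, for the 6 largest LO parts and 6 largest dye parts by size among measured probes, and for the measured isoforms of hexokinase, phosphofructokinase, aldolase, mutase, enolase, pyruvate kinase and lactate dehydrogenase, and others were added after their values were seen. The members and lists were chosen with earlier results of these data known. Alternatives were the value table, flagged features kept, other filters on dim probes, a lower and a higher fold threshold, p thresholds of 0.05 and 0.001, 1 probe per gene, each array alone, centring of each array on its median after plain background subtraction, and normexp (offset 50, on median signals) with loess. Python 3.11.15 (numpy 2.4.6, pandas 2.3.3, matplotlib 3.10.9) and R 4.3.3 (limma 3.58.1) were used.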

Additional observations from a re-analysis of the deposited data

How the results depend on the processing

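The number of members with an LO part over 1.5-fold was 0, and 1 with no filter on dim probes or with 1 channel well above background on each array (Pfkm in both), and 1 on array 1 alone and 1 on array 2 alone (Aldoc, in opposite directions). The number with a dye part over 1.5-fold was 1 and became 2 at a lower fold threshold, 0 at 2-fold, 4 with 1 channel above background on each array, 8 with no filter, 5 with median centring and 0 with normexp and loess, where Aldoc fell short. Median centring, which leaves the dyes uncorrected by signal, moved the median dye part of all measured probes from 0.01 to 0.33 and their median LO part from 0.00 to -0.07. With it the members' median LO part was -0.11 in place of -0.01, and the median size of their dye part 0.474 in place of 0.051, so members are to be read against those shifts. With no filter that size was 0.086. With the software p required on both arrays in the same LO/control direction, no member was selected at thresholds of 0.05 or 0.001. No measured member passed 1.5-fold in the LO part with median centring or with normexp and loess. The value table and the flagged features left the measured members' values as they were by construction, since no member feature was flagged and the table holds the same ratios. The LO part changed sign in 7 of the 27 member probes with median centring and in 6 with normexp and loess. With the latter Pfkfb3 went from 0.17 to -0.09, Hk3 from -0.08 to 0.03 and Pgam2 from 0.16 to 0.01. No paired analysis was possible because the comparison has 1 pair of pools. Precision is limited by 1 pool a group and, under a signal of 200, by background.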
